A study of Mus musculus with 12 samples.

Results

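Bone marrow cells of mice given self-assembled nanoparticles from Cornus officinalis were compared with bone marrow cells of the CTX model of myelosuppression, as RNA levels of all genes. The comparison uses the 4 libraries titled cornus (treatment label cornus officinalis) and the 4 titled model (treatment label CTX), which are 8 of the 12 libraries of the series and were chosen by these labels alone. The other 4 libraries, titled control (treatment label None), are given as values beside the results and enter no group comparison; they share in the TMM scaling and in 1 alternative fit of all 12 libraries. All mice carry the genotype label WT. Whether the cornus mice also received CTX, the dose, the route, the times, and the age and sex of the mice are not given in the sources used here, and neither is whether each library is 1 animal, so the p-values below stand for sample-to-sample spread, which may be technical. The question, from the series' title and design, concerns the nanoparticles in suppressed marrow. The values below give only how the labelled groups differ, since CTX in the cornus mice is not stated.

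Marrow makes blood cells from stem and progenitor cells through intermediate stages that express different genes. In the neutrophil line, primary (azurophil) granule proteins such as myeloperoxidase are made early, in promyelocytes, and secondary and tertiary granule proteins such as lactoferrin and gelatinase are made later, in myelocytes, metamyelocytes and band cells. Ribosome biogenesis, in which RNA polymerase I transcribes ribosomal RNA in the nucleolus and nucleolar proteins cut, modify and assemble it, is known to be high in growing and dividing cells. In bulk RNA, fewer cells of a type and less RNA per cell cannot be told apart.

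The 12 libraries held 13902122 to 19139771 counts in genes, and the libraries with the lowest and the highest total were both cornus libraries. Of 21958 genes, 12224 passed the filter on low counts and were tested. Levels below are counts per 1000000 (CPM) after TMM scaling, and changes are cornus minus model on the log2 scale, with the standard error (SE) of the fit. Marrow markers had counts in all 8 libraries: Ngp stood at 7472 to 24619 CPM, Mpo at 1752 to 3449 CPM, Elane at 682 to 1433 CPM, and the pre-B cell gene Vpreb1 at 0.0770 to 18.6 CPM. The lowest Vpreb1 value lay at the detection limit. On a principal component analysis of the 8 libraries, the first component (34.8% of the variance) did not separate the groups and had model 1 (-22.4) and cornus 1 (-48.4) at its low end. The second component (22.8%) ran from -33.9 to -0.614 in the model libraries and from 14.9 to 20.6 in the cornus libraries. Model 1 and cornus 1 also had the lowest hemoglobin shares of counts, 0.0249% and 0.0218%, against 0.332% to 1.57% in the other 6. Controls 1 to 3 differed from each other by little more than counting noise (chi-square per degree of freedom 1.72 to 1.92, against 12.9 to 79.0 between libraries of the model or of the cornus group), so their mean is given as 1 value and control 4 is given apart.

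No gene passed the threshold in the main test, edgeR's quasi-likelihood test on the 8 libraries at a Benjamini-Hochberg adjusted p below 0.05: 0 genes were called higher (0%) and 0 lower (0%). The smallest adjusted p was 0.0742, shared by 25 genes. At an unadjusted p below 0.05 in the same edgeR fit, 1323 genes were higher (10.8%) and 1373 lower (11.2%) in cornus. The 4 cornus libraries lay above all 4 model libraries for 755 genes (6.18%) and below all 4 for 929 genes (7.6%). DESeq2's Wald test called 619 genes higher (5.06%) and 419 lower (3.43%) at an adjusted p below 0.05, and 880 of these 1038 had no overlap between the groups. A single edgeR fit of all 12 libraries, in which the controls share in the estimate of the spread, called 10 higher and 9 lower. Controls 1 to 3 are nearly identical and may lower that estimate, so genes passing this fit are given as a description only. Without model 2, edgeR called 2 genes higher, Rbpj and Foxd4, and 0 lower; without any other single library it called 0. In what follows, no named gene passed the main test, and "higher" and "lower" describe levels.

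The 10 genes with the smallest p among those higher in cornus had no overlap between the groups. Genes of smallest p, in each direction, were chosen on these same libraries. Their separation and their DESeq2 calls are therefore no separate support. Nlrx1, a mitochondrial NLR protein that modulates innate immune signalling, stood at 35.5, 39.8, 37.3 and 35.4 CPM in model 1 to 4 and 60.7, 58.0, 55.9 and 52.8 CPM in cornus 1 to 4. The model libraries lay within a few CPM of each other and each cornus library lay above them, a log2 change of 0.62 ± 0.08 (edgeR adjusted p = 0.0742). In the controls Nlrx1 stood at 41.4 CPM (mean of controls 1 to 3) and 21.9 CPM (control 4). Adtrp, a membrane hydrolase of fatty acid esters of hydroxy fatty acids, stood at 3.81, 5.75, 5.15 and 3.80 CPM in model 1 to 4 and 14.2, 10.8, 13.8 and 11.8 CPM in cornus 1 to 4. Each cornus library lay well above the highest model library, and the log2 change was 1.45 ± 0.18 and stayed between 1.37 and 1.57 when any single library was left out. Ushbp1 had the largest log2 change of the 10, 2.05 ± 0.30, from levels of 0.984, 0.753, 1.69 and 1.05 CPM in model 1 to 4 and 5.24, 4.95, 3.16 and 5.33 CPM in cornus 1 to 4. Cornus 3 was the low library of its group for this gene. Tex15, known in mouse germ cells for meiotic break repair and transposon silencing, stood at 50.6, 52.4, 47.5 and 45.2 CPM in model 1 to 4 and 76.1, 105, 134 and 96.5 CPM in cornus 1 to 4. Its cornus libraries spread more widely than its model libraries, and its log2 change was 1.07 ± 0.15. Stab1, a scavenger receptor of sinusoidal endothelium and macrophages, stood at 2.34, 2.26, 1.90 and 2.15 CPM in model 1 to 4 and 5.85, 5.17, 4.57 and 8.43 CPM in cornus 1 to 4, a log2 change of 1.47 ± 0.23. In the controls Stab1 stood at 8.27 CPM (mean of controls 1 to 3) and 6.11 CPM (control 4). Adamts2, the protease that removes the amino propeptide of procollagens, was near 1 CPM in the model group, at 1.11, 0.959, 0.881 and 0.800 CPM in model 1 to 4 and 2.54, 3.66, 2.48 and 4.71 CPM in cornus 1 to 4. Cornus 4 was the high library for Adamts2 and for Stab1. Ypel3, a p53 target in human cells, stood at 30.3, 43.7, 32.3 and 35.5 CPM in model 1 to 4 and 61.0, 68.8, 56.8 and 64.6 CPM in cornus 1 to 4. Its log2 change was 0.83 ± 0.12, and controls were higher than both groups, at 139 CPM (mean of controls 1 to 3) and 192 CPM (control 4). The other 3 genes were Rgl2, an exchange factor for Ral GTPases (0.58 ± 0.07), Utrn, the dystrophin relative utrophin (0.49 ± 0.07), and Hacd4, a dehydratase of very long chain fatty acid synthesis (0.89 ± 0.13). All 10 had an adjusted p of 0.0742 in the edgeR fit, which reached at most 0.223 when a library was left out, and all 10 were below 0.05 in DESeq2. In the 12-library fit, 6 of the 10 passed: Ushbp1, Stab1, Rgl2, Adtrp, Ypel3 and Adamts2.

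**Figure D1:**
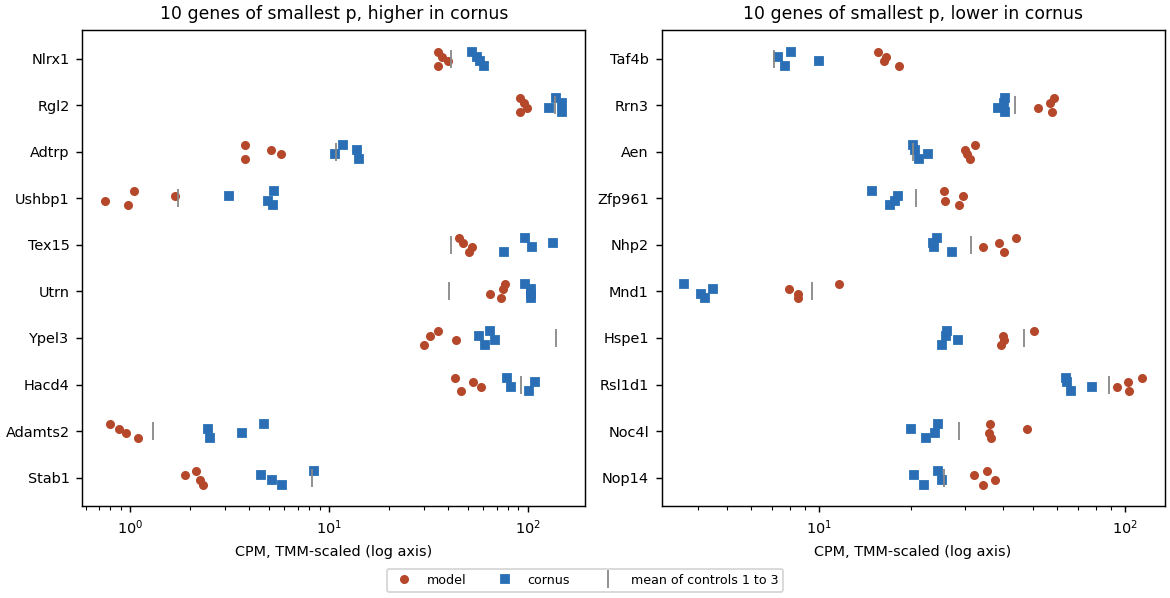
Levels of the 10 genes of smallest p in each direction, in TMM-scaled CPM on a log axis; circles are the 4 model libraries, squares the 4 cornus libraries and the grey tick the mean of controls 1 to 3. For each of the 20 genes the 4 squares and the 4 circles do not overlap, with Ushbp1 at 3.16 to 5.33 CPM in cornus and 0.753 to 1.69 CPM in the model group. The choice by p in the same libraries favours this separation.

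Among the 10 genes of smallest p that were lower in cornus, 5 act in the nucleolus, a count made after their values were seen: Rrn3, Nhp2, Rsl1d1, Noc4l and Nop14. Rrn3 is the initiation factor (TIF-IA) that recruits RNA polymerase I to ribosomal DNA, and stood at 57.6, 52.0, 56.6 and 58.3 CPM in model 1 to 4 and 40.5, 38.4, 40.0 and 40.6 CPM in cornus 1 to 4. The deposited table places it on chromosome 16 at 13598572 to 13632703, on a build that the sources used here do not name and whose positions differ from GRCm38. Within each group the libraries lay close together, and the log2 change of -0.49 ± 0.07 stayed between -0.53 and -0.48 without any single library. Nhp2, a core protein of the H/ACA particles that guide pseudouridylation of ribosomal RNA, stood at 40.3, 34.2, 38.7 and 44.0 CPM in model 1 to 4 and 27.1, 23.8, 23.5 and 24.2 CPM in cornus 1 to 4. The log2 change of Nhp2 was -0.68 ± 0.10. Its controls were at 31.4 CPM (mean of controls 1 to 3) and 59.9 CPM (control 4), the latter above every library of both groups. Noc4l and Nop14, partners in small-subunit assembly, had log2 changes of -0.79 ± 0.12 and -0.59 ± 0.10, and Rsl1d1, a nucleolar protein with a ribosomal L1 domain, one of -0.59 ± 0.09. Taf4b, a TFIID subunit of the general transcription machinery known best in the gonads, stood at 18.1, 16.2, 16.5 and 15.5 CPM in model 1 to 4 and 7.70, 9.97, 7.32 and 8.07 CPM in cornus 1 to 4. Its log2 change was -1.005 (SE 0.13), and the controls were at 7.08 CPM (mean of controls 1 to 3) and 7.91 CPM (control 4), below each model library. Mnd1, which acts with its partner Hop2 in meiotic strand exchange, stood at 8.49, 8.49, 7.93 and 11.6 CPM in model 1 to 4 and 4.23, 4.09, 4.50 and 3.62 CPM in cornus 1 to 4. Its log2 change of -1.15 ± 0.17 was the largest of these 10, with model 4 the high library. Aen, a nuclease induced by p53, stood at 31.0, 30.3, 30.0 and 32.4 CPM in model 1 to 4 and 21.2, 22.7, 20.6 and 20.2 CPM in cornus 1 to 4, with a log2 change of -0.55 ± 0.08. Hspe1, the mitochondrial co-chaperonin Hsp10, had a log2 change of -0.68 ± 0.10, and the zinc finger gene Zfp961 one of -0.69 ± 0.10. The adjusted p in the edgeR fit was 0.0742 for 9 of the 10 and 0.0752 for Nop14, and all 10 were below 0.05 in DESeq2. In the 12-library fit 5 of the 10 passed: Taf4b, Rrn3, Zfp961, Mnd1 and Nop14.

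The list of ribosome biogenesis and RNA polymerase I genes stood lower in cornus as a group. Of its 40 members, all tested, 39 were lower in cornus and 1 was higher, and the median log2 change was -0.44, beside -0.02 over all genes tested. In 27 of the 40, each cornus library lay below each model library (7.6% of all genes tested did so), 34 had an unadjusted p below 0.05 in that direction in the edgeR fit (11.2% of all genes), and 25 were called by DESeq2 (3.43% of all genes). The median over the list, taken against the mean of the model libraries, was -0.01, -0.07, -0.07 and 0.12 in model 1 to 4 and -0.46, -0.35, -0.58 and -0.46 in cornus 1 to 4. No library carried the difference, since the list median stayed between -0.47 and -0.38 when each was left out in turn. The same median was -0.24 to -0.17 in controls 1 to 3 and 0.16 in control 4. Nucleolin (Ncl), the abundant nucleolar RNA-binding protein, stood at 785, 748, 703 and 887 CPM in model 1 to 4 and 525, 588, 489.8 and 523 CPM in cornus 1 to 4, a log2 change of -0.55 ± 0.10. Mybbp1a, a nucleolar protein of ribosomal RNA processing, stood at 170.5, 139, 148 and 181 CPM in model 1 to 4 and 108, 113, 90.8 and 109 CPM in cornus 1 to 4. Nop58 and Nop2, a box C/D particle core protein and a ribosomal RNA methyltransferase, had log2 changes of -0.58 ± 0.10 and -0.58 ± 0.10. Pes1, of the complex that processes the large-subunit precursor, had one of -0.43 ± 0.07, and Polr1b, the second largest subunit of RNA polymerase I, one of -0.61 ± 0.12. The 12-library fit, given as a description only, called 9 genes lower among all genes. Of these, 2 were members of the list: Rrn3 and Taf1d, a subunit of the polymerase I selectivity factor SL1 (-0.49 ± 0.09). Markers of stem and progenitor cells, 22 genes tested, were 9 higher and 13 lower, with a median log2 change of -0.06 and summed levels of 1127 to 1272 CPM in model and 1021 to 1277 CPM in cornus libraries; their part in the ribosome biogenesis result was not tested.

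The promoters of 4 of these genes are printed because they hold CACGTG, the palindromic E-box that basic helix-loop-helix factors bind, and are the 4 of smallest p on the list that do. Each runs 5′ to 3′ on the gene's strand from 250 bases before to 50 after the annotated start, is taken from RefSeq on GRCm38.p6, and has the E-box in capitals.
Rrn3 (chr16:13780449-13780748, + strand): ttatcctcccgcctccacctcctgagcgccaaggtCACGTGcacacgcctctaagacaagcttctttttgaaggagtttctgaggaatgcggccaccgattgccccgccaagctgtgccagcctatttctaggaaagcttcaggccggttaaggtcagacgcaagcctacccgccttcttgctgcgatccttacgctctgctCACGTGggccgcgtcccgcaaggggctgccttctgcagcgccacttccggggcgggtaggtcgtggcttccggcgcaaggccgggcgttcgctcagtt
Nop2 (chr6:125131633-125131932, + strand): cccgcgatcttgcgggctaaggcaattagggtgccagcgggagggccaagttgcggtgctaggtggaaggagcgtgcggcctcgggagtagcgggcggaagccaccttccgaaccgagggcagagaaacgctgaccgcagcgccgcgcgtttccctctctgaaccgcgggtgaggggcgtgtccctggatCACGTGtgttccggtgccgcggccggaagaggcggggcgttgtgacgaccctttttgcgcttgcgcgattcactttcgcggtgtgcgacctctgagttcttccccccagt
Pes1 (chr11:3963725-3964024, + strand): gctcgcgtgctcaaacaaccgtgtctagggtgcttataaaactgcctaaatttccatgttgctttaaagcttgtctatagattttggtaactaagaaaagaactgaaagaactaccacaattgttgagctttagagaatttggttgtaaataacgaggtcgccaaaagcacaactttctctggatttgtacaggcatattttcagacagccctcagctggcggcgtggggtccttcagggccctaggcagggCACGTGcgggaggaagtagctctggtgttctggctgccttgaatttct
Mybbp1a (chr11:72441077-72441376, + strand): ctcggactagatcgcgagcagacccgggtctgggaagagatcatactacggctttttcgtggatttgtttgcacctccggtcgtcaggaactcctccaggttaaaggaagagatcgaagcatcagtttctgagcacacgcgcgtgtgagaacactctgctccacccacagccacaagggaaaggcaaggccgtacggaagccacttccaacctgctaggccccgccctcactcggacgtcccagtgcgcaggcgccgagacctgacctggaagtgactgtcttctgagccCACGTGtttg
Rrn3 holds 2 matches and the other 3 hold 1 each. The CACGTG letters, searched on both strands of the first listed promoter of each gene, were in 8 of the 34 list members with a promoter in the table (23.5%) and in 10.02% of 9764 tested genes with one. They were in 15.2% of the 755 such genes that lay lower in cornus with no overlap and in 9.44% of the 625 that lay higher. Of the other 7 motifs searched, each on both strands, the shares in these lower genes and in all tested genes were 39.9% and 39.0% for CCAAT, 63.0% and 63.5% for GGGCGG, 9.14% and 7.07% for TTCNNNGAA, and 1.32% and 0.645% for TTTCGCGC. They were 5.56% and 6.94% for TATAAA, 5.03% and 6.53% for AGATAA, and 3.31% and 3.64% for TGACTCA. Among the 34 list members, TTCNNNGAA was in 5 (14.7%). CACGTG was not particular to lists that stood lower. It was also in 4 of 20 promoters (20%) of the secondary and tertiary granule list, described below, which stood higher in cornus. A match is a description of the letters in this window, and these gene sets were chosen on the levels above, so the shares carry no test.

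Other lists of protein synthesis and folding were also mostly lower in cornus, by smaller amounts. Of 76 mitochondrial ribosomal protein genes, 71 were lower with a median log2 change of -0.22, 22 with no overlap (7.6% of all genes) and 11 called by DESeq2 (3.43% of all genes). Mrpl3 stood at 36.2, 37.3, 42.1 and 41.1 CPM in model 1 to 4 and 29.1, 30.7, 28.8 and 29.6 CPM in cornus 1 to 4, a log2 change of -0.41 ± 0.08. Of 80 cytosolic ribosomal protein genes, 79 were lower with a median of -0.28. At an unadjusted p below 0.05 in the edgeR fit 21 were lower (11.2% of all genes), but 0 had no overlap, and 0 were called by DESeq2. The list median against the model mean was -0.26 in model 2 and 0.18 in model 4, and -0.48 to -0.00 in the cornus libraries, so the groups overlapped. Genes of short transcripts stood lower in general: the median log2 change was -0.08 in the tenth of genes with the shortest annotated length (median 1377 bases) and 0.06 in the tenth with the longest (median 12573 bases), and the part of length in these values was not tested. Of 23 heat shock and chaperone genes, 21 were lower, with a median of -0.30, 11 with no overlap (7.6% of all genes) and 10 called by DESeq2 (3.43% of all genes). Of the mitochondrial chaperones, Hspe1 stood at 39.1, 40.2, 39.9 and 50.3 CPM in model 1 to 4 and 25.3, 28.4, 26.0 and 26.1 CPM in cornus 1 to 4 and Hspa9, the mitochondrial Hsp70, at 236, 179, 185 and 259 CPM in model 1 to 4 and 141, 162, 123 and 142 CPM in cornus 1 to 4. Cct3 and Tcp1, subunits of the cytosolic chaperonin that folds actin and tubulin, had log2 changes of -0.49 ± 0.11 and -0.46 ± 0.11. All 34 constitutive proteasome genes were lower, with a median of -0.17 and 7 with no overlap (7.6% of all genes); DESeq2 called 1, a share near that of all genes (3.43%). Of 77 nuclear respiratory chain genes, 67 were lower, with a median of -0.15, 10 with no overlap (7.6% of all genes) and 4 called by DESeq2 (3.43% of all genes). Atp5b, the catalytic beta subunit of ATP synthase, had a log2 change of -0.37 ± 0.10. For the nuclear respiratory chain list the median against the model mean was 0.31 to 0.35 in controls 1 to 3 and 0.84 in control 4.

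**Figure D2:**
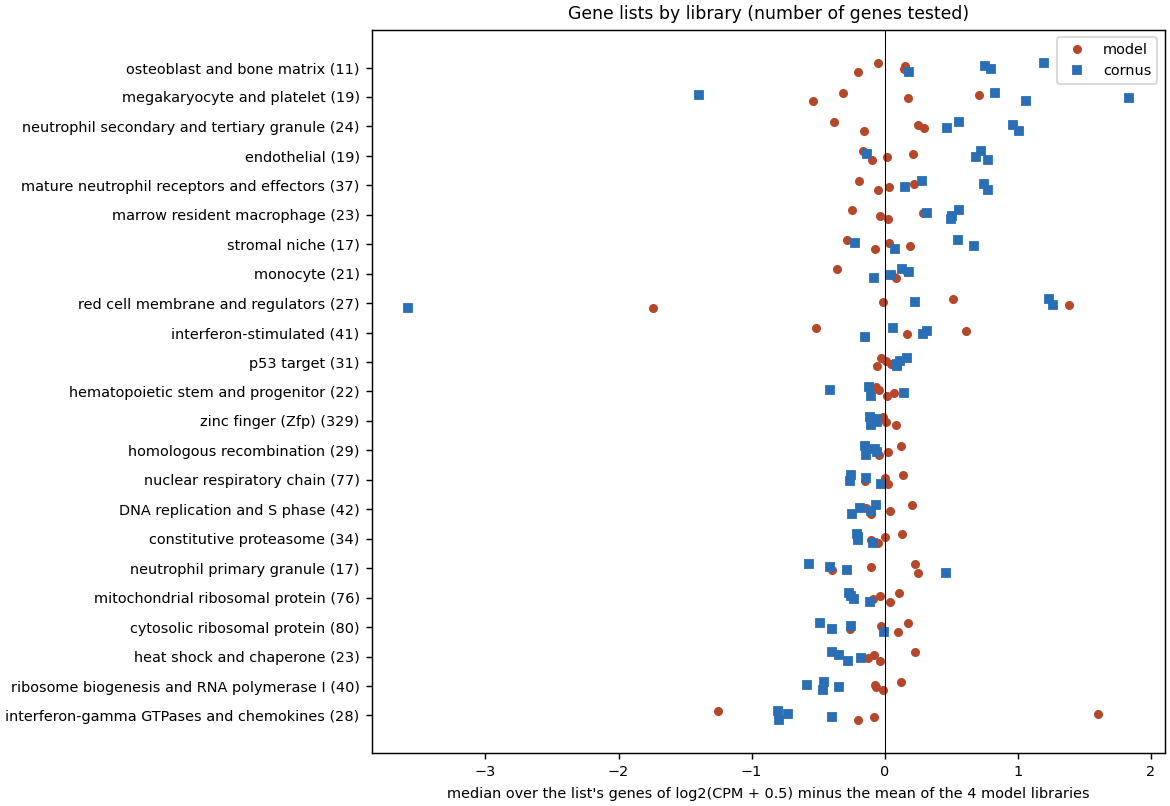
For each of 23 gene lists (number of genes tested in brackets), the median over its genes of log2(CPM + 0.5) minus the mean of the 4 model libraries, 1 circle per model library and 1 square per cornus library. The squares of ribosome biogenesis lie from -0.58 to -0.35, below all 4 circles; those of the secondary and tertiary granule list lie from 0.47 to 1.01, above all 4; libraries spread widely in both groups of the red cell list, in cornus for the megakaryocyte list and in the model group for the interferon-gamma list.

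Genes of the late neutrophil granules stood higher in cornus. All 24 tested members of the secondary and tertiary granule list were higher, with a median log2 change of 0.78, 13 with no overlap (6.18% of all genes tested had none in that direction), 20 at an unadjusted p below 0.05 in the edgeR fit (10.8% of all genes) and 18 called by DESeq2 (5.06% of all genes). The list median against the model mean was -0.15, 0.29, 0.25 and -0.38 in model 1 to 4 and 1.01, 0.47, 0.96 and 0.56 in cornus 1 to 4. It stayed between 0.62 and 0.87 without any single library. Models 1 and 4 were the low libraries and cornus 1 and 3 the high ones, and this split recurred within genes such as Ltf and Mmp8. Ceacam1 departed from it, at 357, 321, 302 and 239 CPM in model 1 to 4, with model 1 its highest model library. Lactoferrin (Ltf), the iron-binding protein of the secondary granule, stood at 4216, 8929, 9125 and 3762 CPM in model 1 to 4 and 14254, 10227, 15565 and 11219.9 CPM in cornus 1 to 4. Mmp8, the neutrophil collagenase, stood at 206, 651, 629 and 199 CPM in model 1 to 4 and 1259, 823, 1253 and 919 CPM in cornus 1 to 4. For both genes models 1 and 4 lay well below models 2 and 3, and each cornus library lay above all 4. Mmp9, the gelatinase of the tertiary granule, had a log2 change of 1.16 ± 0.34, and Camp, the precursor of the antimicrobial peptide CRAMP, one of 0.82 ± 0.30. Lipocalin 2 (Lcn2), which binds bacterial siderophores, stood at 2132, 3002, 3028 and 2183 CPM in model 1 to 4 and 5796, 3672, 5180.4 and 3807 CPM in cornus 1 to 4. Its log2 change was 0.84 ± 0.20 (edgeR adjusted p = 0.0956). Slpi, an inhibitor of neutrophil elastase, had a log2 change of 0.77 ± 0.17 and the smallest adjusted p of the list, 0.0873 in the edgeR fit. Retnlg, a resistin-like protein of mature neutrophils, had the largest log2 change of the list, 1.72 ± 0.53, but its groups overlapped, with model 3 at 393 CPM above cornus 2 at 325 CPM. Controls 1 to 3 were far above both groups for Retnlg, at 2999 CPM (mean of controls 1 to 3) and 2343 CPM (control 4), and not for Ltf, at 9891 CPM (mean of controls 1 to 3) and 5827 CPM (control 4).

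The early granule list did not show this pattern. Of 17 primary granule genes, 5 were higher and 12 lower, with a median of -0.21, 0 with no overlap, 0 at an unadjusted p below 0.05 and 0 called by DESeq2. That median moved with single libraries, from -0.47 without cornus 1 to -0.07 without cornus 4. Mpo, the enzyme that makes hypochlorous acid, stood at 3299.9, 2060.3, 2551 and 3449 CPM in model 1 to 4 and 2867, 2072, 1899.7 and 1752 CPM in cornus 1 to 4. Its groups overlapped, and its log2 change of -0.40 ± 0.21 had an adjusted p of 0.295 in the edgeR fit. The difference between the early and the late granule list was not tested. Among 37 receptor and effector genes of mature neutrophils, 34 were higher, with a median of 0.54, 6 with no overlap (6.18% of all genes) and 10 called by DESeq2 (5.06% of all genes). The list median against the model mean was 0.77 and 0.75 in cornus 1 and 3 but 0.16 and 0.28 in cornus 2 and 4, with the model libraries from -0.19 to 0.22. Csf3r, the receptor of granulocyte colony-stimulating factor, stood at 286, 337, 302 and 303 CPM in model 1 to 4 and 642, 396, 482 and 391 CPM in cornus 1 to 4. Each cornus library lay above the highest model library, and the log2 change was 0.64 ± 0.16 (edgeR adjusted p = 0.0987). S100a6 and Il1r2, a calcium-binding protein and the decoy receptor of interleukin-1, had log2 changes of 0.98 ± 0.26 and 0.89 ± 0.25.

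**Figure D3:**
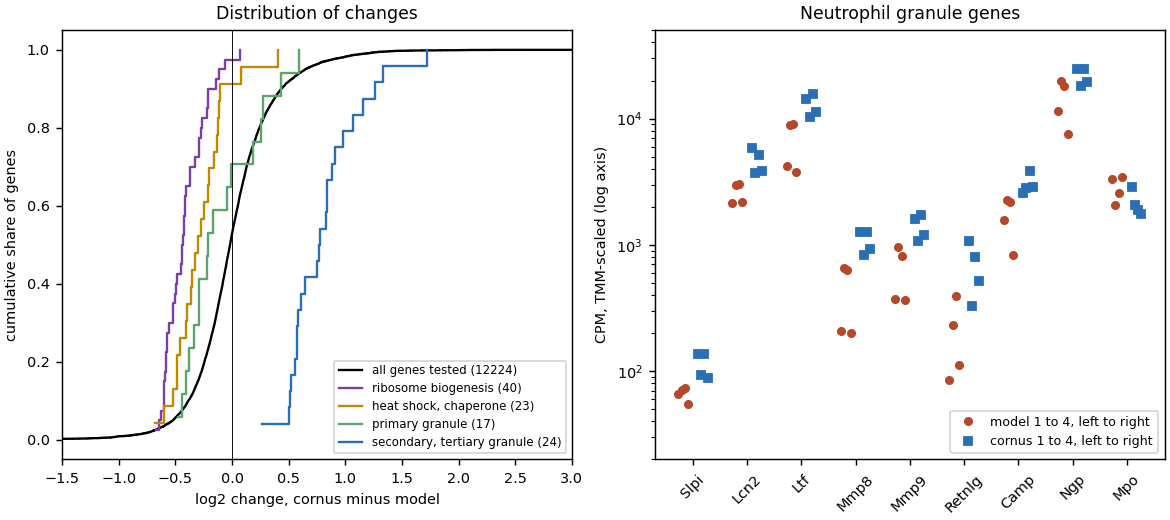
Left, cumulative share of genes by log2 change (cornus minus model) for all 12224 genes tested and 4 lists, with the number of genes in brackets; right, TMM-scaled CPM on a log axis of 9 neutrophil granule genes, 1 point per library. The median is -0.44 for ribosome biogenesis, -0.21 for the primary granule list and 0.78 for the secondary and tertiary granule list, and models 1 and 4 are the low circles for Ltf, Mmp8 and Mmp9.

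Monocyte genes differed less, and resident macrophage genes stood higher. Of 21 monocyte genes, 15 were higher, with a median of 0.16 that was -0.01 without model 4 and 0.09 to 0.26 without any other single library. F13a1, the coagulation factor XIII A chain, was the 1 member with no overlap (6.18% of all genes), at 942, 918, 865 and 875 CPM in model 1 to 4 and 1367, 1256, 1039 and 1390.4 CPM in cornus 1 to 4. Its log2 change was 0.49 ± 0.11 (edgeR adjusted p = 0.0919). Of 23 marrow resident macrophage genes, 19 were higher, with a median of 0.48 (0.40 to 0.55 without any single library), 3 with no overlap (6.18% of all genes), 12 at an unadjusted p below 0.05 (10.8% of all genes) and 7 called by DESeq2 (5.06% of all genes). Their summed level was 769 to 1024 CPM in model and 1019 to 1072 CPM in cornus libraries, with an overlap. Mertk, a receptor for the uptake of apoptotic cells, stood at 4.37, 3.15, 4.41 and 2.0 CPM in model 1 to 4 and 8.16, 5.31, 6.85 and 7.19 CPM in cornus 1 to 4. That gave Mertk a log2 change of 0.99 ± 0.27. Mrc1, the mannose receptor CD206, had one of 0.78 ± 0.21, and Adgre1, which encodes the F4/80 antigen, one of 0.49 ± 0.13. Both groups overlapped, since model 1 stood above cornus 3 for Mrc1 and above cornus 1 for Adgre1.

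Markers of the vessel wall and of bone stood higher in cornus at low levels, and the libraries differed within the group. Of 11 osteoblast and bone matrix genes, 10 were higher, with a median of 1.34, 2 with no overlap (6.18% of all genes) and 3 called by DESeq2 (5.06% of all genes). Col1a1, the alpha 1 chain of type I collagen, stood at 7.38, 8.28, 4.88 and 6.70 CPM in model 1 to 4 and 10.1, 19.3, 33.1 and 102 CPM in cornus 1 to 4. Cornus 4 was more than 3 times the next library, and the log2 change of 2.60 ± 0.65 was 1.61 without it and 2.47 to 2.92 without any other single library. Sparc, osteonectin, stood at 8.61, 13.9, 14.8 and 11.1 CPM in model 1 to 4 and 21.6, 21.6, 19.7 and 39.9 CPM in cornus 1 to 4. Here too cornus 4 was the high library, with a log2 change of 1.09 ± 0.26. Of 19 endothelial genes, 17 were higher, with a median of 0.69, 3 with no overlap (6.18% of all genes) and 3 called by DESeq2 (5.06% of all genes). Lyve1, 1 of the 3 with no overlap, is also on the resident macrophage list and is counted in both. The list median against the model mean was 0.77, 0.68 and 0.72 in cornus 1, 2 and 4 but -0.13 in cornus 3. Stab2, a hyaluronan scavenger receptor of sinusoidal endothelium, stood at 2.40, 2.19, 1.63 and 3.95 CPM in model 1 to 4 and 7.85, 7.32, 3.22 and 9.57 CPM in cornus 1 to 4. Kdr, the main receptor of vascular endothelial growth factor, stood at 2.03, 3.01, 3.32 and 3.40 CPM in model 1 to 4 and 7.24, 6.46, 3.16 and 5.74 CPM in cornus 1 to 4. Cornus 3 was the low cornus library for both and overlapped the model libraries. Of 17 stromal niche genes, 11 were higher and 6 lower, with a median of 0.17. In that list 1 lay higher with no overlap (6.18% of all genes) and 1 lower (7.6% of all genes). The higher 1 was Pdgfra, with a log2 change of 1.39 ± 0.38, and the lower 1 was Csf1, with -0.51 ± 0.17. Cxcl12, the chemokine that holds stem cells in the marrow, stood at 15.6, 29.0, 20.9 and 9.70 CPM in model 1 to 4 and 37.0, 40.3, 24.0 and 52.6 CPM in cornus 1 to 4, with an overlap and a log2 change of 1.04 ± 0.34. Summed levels of these lists were 131 to 171 CPM in model and 143 to 381 CPM in cornus libraries for bone, and 156 to 235 CPM and 140 to 342 CPM for endothelium. Adamts2 and Stab1, named above, were high in the same library as Col1a1 and Sparc, cornus 4, and the part of non-blood cells in those results was not tested.

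Megakaryocyte and platelet genes varied together from library to library. All 19 were higher in cornus on the mean, with a median log2 change of 0.93, but 0 had no overlap, 1 had an unadjusted p below 0.05 (10.8% of all genes) and 0 were called by DESeq2. The list median against the model mean was 1.06, 1.83 and 0.83 in cornus 1, 2 and 4 and -1.39 in cornus 3, below all 4 model libraries (-0.54 to 0.71). Ppbp, a platelet chemokine precursor, stood at 68.3, 115, 163 and 83.4 CPM in model 1 to 4 and 318, 422, 31.1 and 214 CPM in cornus 1 to 4. Itga2b, the platelet integrin alpha IIb, stood at 68.1, 115, 148 and 58.5 CPM in model 1 to 4 and 177, 303, 34.2 and 173 CPM in cornus 1 to 4. The list median was 0.42 without cornus 2 and 1.26 without cornus 3.

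Interferon-gamma-induced GTPases and chemokines stood lower in cornus on the mean, and 1 model library carried most of the difference. Of 28 such genes, 27 were lower, with a median of -1.11, but 0 had no overlap. At an unadjusted p below 0.05 in the edgeR fit, 10 were lower (11.2% of all genes), and DESeq2 called 3 lower (3.43% of all genes). Their summed level was 2272, 2716, 8529 and 1046 CPM in model 1 to 4 and 1479, 1906, 1690 and 1439 CPM in cornus 1 to 4. Model 3 was the high library, and model 4 lay below all 4 cornus libraries. Without model 3 the list median was -0.28, and without any other single library it was -1.45 to -1.09. Iigp1, an immunity-related GTPase that attacks pathogen vacuoles, stood at 98.7, 142, 851 and 10.9 CPM in model 1 to 4 and 23.2, 41.0, 18.2 and 17.1 CPM in cornus 1 to 4. Gbp2, a guanylate-binding protein, stood at 145, 178, 1012 and 29.3 CPM in model 1 to 4 and 77.9, 99.6, 78.5 and 49.6 CPM in cornus 1 to 4. Its log2 change of -2.16 ± 0.88 had a wide error, as did that of Iigp1, -3.47 ± 1.08. These families hold near-identical copies, such as Tgtp1 and Tgtp2, whose counts are uncertain. Of 41 interferon-stimulated genes of the type I response, 24 were higher and 17 lower, with a median of 0.12, 0 with no overlap and 0 called by DESeq2. That median moved with single libraries, to 0.30 without model 3 and 0.005 without model 4. Oas1a, which makes the activator of RNase L, stood at 112, 128, 149 and 113 CPM in model 1 to 4 and 158, 153, 179 and 139 CPM in cornus 1 to 4. Its controls were at 40.9 CPM (mean of controls 1 to 3) and 25.5 CPM (control 4), below both groups, and its counts may be split with the close copy Oas1g.

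**Figure D4:**
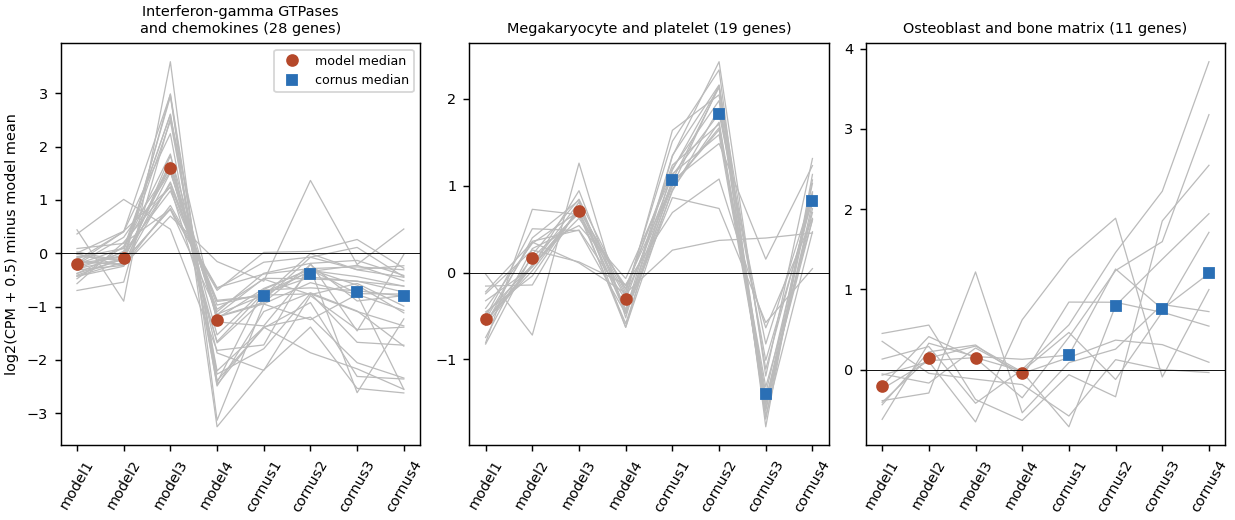
Log2(CPM + 0.5) minus the model mean in each of the 8 libraries, 1 grey line per gene and the list median as a circle (model) or a square (cornus); lines join libraries to show each gene and imply no order. Model 3 is high for the interferon-gamma list (28 genes), cornus 3 is low for the megakaryocyte list (19 genes), and cornus 4 is high for the bone list (11 genes).

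Red cell genes showed no group difference larger than the spread between libraries. The hemoglobin share of counts was 0.0249%, 0.942%, 0.463% and 0.332% in model 1 to 4 and 0.0218%, 1.57%, 0.448% and 1.40% in cornus 1 to 4, with 2.45% to 2.49% in controls 1 to 3 and 9.80% in control 4. The mean log2 difference was 0.65 (exact two-sided permutation test, p = 0.6, 70 assignments, smallest possible p 0.0286). It was -0.45 without model 1 and -0.03 without cornus 2. Of 27 red cell membrane and regulator genes, 21 were higher and 6 lower, with a median of 0.13, and 0 had no overlap. Car1, the carbonic anhydrase of early red cells, was the 1 member with an unadjusted p below 0.05, at 38.6, 92.7, 44.4 and 47.6 CPM in model 1 to 4 and 9.24, 26.0, 27.8 and 41.4 CPM in cornus 1 to 4. Its log2 change was -1.09 ± 0.43, with an adjusted p of 0.186 in the edgeR fit.

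Genes of stem cells, DNA replication and damage response differed by small amounts. Of 22 stem and progenitor genes, 9 were higher and 13 lower, with a median of -0.06 that was 0.01 without model 2. In that list 3 had no overlap, all lower in cornus (7.6% of all genes), and DESeq2 called 0 of the 22. Mecom, a transcription factor needed by stem cells, was near the detection limit, at 0.677, 1.51, 1.02 and 1.80 CPM in model 1 to 4 and 0.308, 0.431, 0.269 and 0.362 CPM in cornus 1 to 4. Its log2 change was -1.85 ± 0.39 (edgeR adjusted p = 0.0873), and DESeq2 gave it no adjusted p. Kit, the receptor of stem cell factor, stood at 130.4, 119.8, 111 and 114 CPM in model 1 to 4 and 50.9, 106, 90.0 and 90.6 CPM in cornus 1 to 4. Cornus 1 was the low library, and the log2 change of -0.49 ± 0.19 was -0.31 without it and -0.62 to -0.44 without any other single library. Erg, also on the stem and progenitor list, went the other way, with overlapping groups and a log2 change of 0.28 ± 0.14. Of 42 DNA replication and S phase genes, 39 were lower, with a median of -0.17, 5 with no overlap (7.6% of all genes); DESeq2 called 1, a share no larger than that of all genes (3.43%). Rpa2, a subunit of the single-strand binding complex, stood at 66.3, 65.6, 67.2 and 74.9 CPM in model 1 to 4 and 48.5, 50.4, 55.7 and 56.1 CPM in cornus 1 to 4. Of 29 homologous recombination genes, 20 were lower and 9 higher, with a median of -0.13; 5 lay lower with no overlap (7.6% of all genes) and 1 lay higher (6.18% of all genes). Rad50, of the break-sensing complex, had a log2 change of -0.34 ± 0.10. Of 31 p53 target genes, 20 were higher and 11 lower, with a median of 0.11. Trp53inp1, a stress-induced p53 partner, stood at 132, 158, 192 and 124 CPM in model 1 to 4 and 278, 189, 267 and 222 CPM in cornus 1 to 4, a log2 change of 0.66 ± 0.17, and Aen, named above, lay lower. Of 329 zinc finger (Zfp) genes, 219 were lower and 110 higher, with a median of -0.09; 34 lay lower with no overlap (7.6% of all genes did) and 9 higher (6.18%).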

How the data were processed

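RNA of bone marrow cells was made into poly(A) libraries and sequenced, per the labels' protocols. The authors deposited 1 table with a raw read count and an FPKM value per gene and library. The submitters' processing notes list fastp 0.22.0, HISAT2 2.1.0 and HTSeq 0.9.1; the genome build, annotation and strand setting are not given in the sources used here. The deposited FPKM equal the counts scaled by length and library total and were not tested.

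Groups came from the treatment labels. Genes passing edgeR's filter on low counts in the 8 cornus and model libraries (12224 of 21958) were fitted with edgeR 4.0.16 (R 4.3.3), quasi-likelihood F test, TMM factors over all 12 libraries, group as the sole term, Benjamini-Hochberg threshold 0.05. The SE is the log2 change over the root of F. Displayed CPM are TMM-scaled, with 0.5 added before log2. The script was tested on simulated counts. DESeq2 1.42.0, the 12-library fit, other normalizations and filters, a replicate block, a hemoglobin covariate and leaving out each library were alternatives. The hemoglobin share was compared by an exact permutation test. Genes named are the 10 of smallest p in each direction, since none passed, up to 4 of smallest p in each described list, and further list members chosen after their values were seen. The members and lists were chosen with earlier results of these data known. Promoters came from RefSeq (GRCm38.p6); 9764 of the 12216 symbols tested had one. Controls 1 to 3, being nearly identical, were kept out of the main test. Levels are given to counting precision at 13902122 to 19139771 counts per library.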

Additional observations from a re-analysis of the deposited data

Results flagged for a closer look

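The 105 genes chosen by smallest p (210 groups of 4 libraries) and 23 lists (46 groups) were searched for outlying libraries. In 11 groups, 1 library lay far from the other 3, no more than the about 1 in 20 that chance gives. List members named for other reasons were not searched. Model 4 was high for Hspe1, at 50.3 CPM, and for Rfc3, the clamp loader subunit, at 41.9 CPM. Model 3 was high for Noc4l at 47.9 CPM, for Oas1g at 78.9 CPM and for Cd48 at 93.7 CPM. Model 2 was low for Il1r2 at 9.65 CPM. Cornus 3 was low for Ushbp1 at 3.16 CPM and for the endothelial list, with a median of -0.133 against the model mean. Cornus 4 was low for Utrn at 96.5 CPM, where the other 3 lay at 104 CPM, and high for Sparc at 39.9 CPM. Cornus 1 was the highest cornus library for the constitutive proteasome list, at -0.0856.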

How the results depend on the processing

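The main test called 0 genes in each direction. The count was 10 higher and 9 lower with all 12 libraries in 1 fit, 619 and 419 with DESeq2, and 226 and 229 at an adjusted p below 0.10, a threshold added after seeing the data. Leaving out 1 library gave 0 to 2 higher and 0 lower. Without number 1 of both groups, genes at an unadjusted p below 0.05 in edgeR numbered 732 higher and 952 lower, against 1323 and 1373. With 1 library left out, the higher count fell as low as 987 (without model 4). The lower count fell as low as 977 (without cornus 3). The cause of these falls was not tested. The other normalizations, filters and the hemoglobin covariate called 0.

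The hemoglobin difference ran from -0.454 (without model 1, exact permutation p = 0.943) to 2.02 on the log2 scale, and was -0.0334 without cornus 2 (p = 0.971). With a hemoglobin covariate the red cell list's median was -0.59, against 0.13.

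Replicate numbers are shared by the groups, but same-numbered libraries deviated together with correlations of 0.506, 0.371, -0.0469 and 0.0571, so the numbers were not taken to pair them. Model 2 correlated best with cornus 4. With a replicate block, 0 genes were called, and 1368 higher and 1284 lower had an unadjusted p below 0.05.

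No log2 change of a gene chosen by smallest p changed sign under the alternatives run. Counted per gene and alternative, 1708 kept their side of the threshold and 74 passed it. List members named for other reasons were not part of this check. Medians of 20 of all 61 lists changed sign when 1 library was left out, the mitochondrial genome list among them, and 3 of the 23 lists plotted by library: monocyte (-0.01 without model 4), stem and progenitor (0.01 without model 2) and red cell (-0.20 to 0.79). The stromal niche median was 0.54 without model 2.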

Other observations

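The lymphoid lists had negative medians, with wide spread between libraries, and members of each list went in both directions. Of 22 early B cell progenitor genes, 21 were lower, with a median log2 change of -0.56 that ran from -1.44 (without cornus 4) to -0.21 (without cornus 1), and 0 had no overlap. The list median against the model mean was -2.99, -1.0, -0.84 and 0.62 in cornus 1 to 4 and -0.23 to 0.14 in the model libraries. Controls 1 to 3 lay at 1.92 to 2.0 and control 4 at 3.18. Cornus 1 was the low library and cornus 4 lay above all 4 model libraries. Of 19 T cell genes, 15 were lower, with a median of -0.43 (-0.54 to -0.05 without any single library). The 1 member with no overlap was higher, a share near that of all genes (6.18%). Of 16 mature B cell genes, 7 were higher and 9 lower, with a median of -0.18 (-0.41 to 0.05 without any single library). In that list 2 lay higher with no overlap (6.18% of all genes) and 0 lower. At an unadjusted p below 0.05 in the edgeR fit, 4 were higher (10.8% of all genes) and 0 lower (11.2% of all genes). The summed level of the list was 375 to 423 CPM in model and 424 to 497 CPM in cornus libraries. Of 10 plasma cell genes, 4 were higher and 6 lower, with a median of -0.17 and summed levels of 471 to 571 CPM in model and 539 to 766 CPM in cornus libraries. Of 19 cytotoxic and NK cell genes, 4 were higher and 15 lower, with a median of -0.35 (-0.65 to 0.02 without any single library) and 0 with no overlap. Of 12 genes of MHC class II antigen presentation, 10 were lower, with a median of -0.55; 1 lay lower with no overlap, a share near that of all genes (7.6%).

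Of 9 osteoclast genes, 8 were higher, with a median of 0.42 and 2 with no overlap (6.18% of all genes). Their summed level was 834 to 1597 CPM in model and 1857 to 2356 CPM in cornus libraries. The list shares Mmp9 with the secondary and tertiary granule list and Itgb3 with the megakaryocyte list. The part of these shared genes in the osteoclast values was not tested. The 12 mitochondrially encoded genes tested had a median of -0.02, with 5 higher and 7 lower and 0 at an unadjusted p below 0.05 in the edgeR fit, where 67 of the 77 nuclear respiratory chain genes were lower. Of 44 mitosis and spindle genes, 37 were lower, with a median of -0.08 and 0 at an unadjusted p below 0.05. The median was -0.15 without model 3 and -0.02 without model 2. The secondary and tertiary granule promoters held TATAAA in 6 of 20 genes (30.0%) and GGGCGG in 4 of 20 (20%), against 6.94% and 63.5% of all tested genes. They held CACGTG in 4 of 20 (20%), against 10.02% of all tested genes. These shares are a description with no test.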
